A study of Danio rerio with 16 samples.

Results

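Liver libraries of 2 transgenic zebrafish genotypes that differ, as labelled, by hepatitis B virus X protein (HBx) were compared: 4 HBx,Src(p53-) libraries against 4 Src(p53-) libraries, which are 8 of the 16 libraries of the series. They were chosen by genotype label alone. HBx,Src(p53-) fish carry HBx and Src transgenes and Src(p53-) fish carry the Src transgene, each transgene driven in hepatocytes by the fabp10a promoter, and both genotypes are on the p53 mutant background, so by their labels all 8 libraries share Src and the p53 mutation. Feeding began at 3 months of age and lasted 8 weeks. The 4 HBx,Src(p53-) libraries comprised 2 on the normal Artemia diet (NOR) and 2 on Artemia overfeeding (DIO). The 4 Src(p53-) libraries comprised 2 NOR, 1 DIO and 1 on NOR feeding with a high-fat food (FAT), so the obesity diets were not the same on both sides. The other 8 libraries, 4 of HBx(p53-) and 4 of wild type (WT), each 2 NOR, 1 DIO and 1 FAT, served only to place the genes found here. The labels do not give the sex of the fish or say whether a library is a single fish or a pool. A legend of the paper counts 16 fish for sequencing, which would be 1 fish for each of the 16 libraries. The labels also do not say that libraries came from separate clutches, so p-values measure the spread between these samples.

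HBx is a small regulatory protein of the virus. It recruits the host CUL4-DDB1 ubiquitin ligase to degrade the SMC5/6 complex, and it is described as acting on CREB coactivators, DNA methyltransferases, p53 and the Src kinase in cultured human hepatocytes. Src is a non-receptor tyrosine kinase that signals from focal adhesions, and p53 is the transcription factor that arrests or kills damaged cells. The comparison asks what the HBx transgene adds to livers that already carry Src without wild-type p53.

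Values are fragments scaled by length and library size (FPKM), as the authors gave them, and whether they were counted per transcript or per gene is not given. Differences were fitted as log2(FPKM + 1) of HBx,Src(p53-) minus Src(p53-) with limma and the diet class (NOR or obesity) as a covariate, so fold changes of low genes are understated. An adjusted p is Benjamini-Hochberg over all 12628 genes whose mean reached 1 FPKM, of which 5520 have a symbol. Values are listed in the order NOR 1, NOR 2, DIO 1, DIO 2 for HBx,Src(p53-) and NOR 1, NOR 2, DIO, FAT for the other genotypes.

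FPKM summed to between 833561 and 1218150 in the 8 libraries, with 20348 to 23009 genes above 0. The library HBx,Src(p53-) NOR 2 stood apart from its own genotype: across genes its log2 values correlated at 0.902 with Src(p53-) NOR 1 and at 0.852 with HBx,Src(p53-) NOR 1, a description over genes that share libraries and depth. The same library held the smallest sum over 9 ovary and oocyte markers among the HBx,Src(p53-) libraries (82.0, 4.65, 30.9 and 16.8 FPKM, against 0.0222, 6.28, 0.778 and 0.739 FPKM in Src(p53-)). The other libraries of HBx,Src(p53-) lay above every Src(p53-) library in that sum. Egg proteins of this kind are made in oocytes, and several results that follow this order of libraries are given below also without NOR 1 or NOR 2.

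The Src transgene gene was checked first. The gene src was at 15.7, 15, 3.47 and 4.34 FPKM in HBx,Src(p53-), against 14.2, 20.3, 47.3 and 4.90 FPKM in Src(p53-). It lay between 1.47 and 4.15 FPKM in HBx(p53-) and between 0 and 4.24 FPKM in WT, so the NOR libraries of both Src genotypes were above every library without the transgene, and so was Src(p53-) DIO. The library labelled HBx,Src(p53-) DIO 1 lay inside the range without the transgene, and those labelled HBx,Src(p53-) DIO 2 and Src(p53-) FAT lay next to it, so src did not clearly set these 3 obesity libraries apart. The log2 difference was -0.96 (p = 0.2, n = 4 each, exact permutation test, two-sided, with 70 splits and a smallest possible p of 0.0286). In the fit with diet class src was at -0.96 ± 0.63 (SE), and at -0.19 ± 0.34 without the Src(p53-) DIO library. The contrast on NOR, where src was above that range in all 4 libraries, is given at the end. The promoter's own gene fabp10a, a hepatocyte fatty acid carrier, was at 1732 to 3312 FPKM in HBx,Src(p53-) and 1331 to 2525 FPKM in Src(p53-) (log2 difference 0.30, exact permutation p = 0.4, n = 4 each). HBx is a viral gene with no zebrafish counterpart and its level was not analysed here.

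At an adjusted p under 0.05 21 genes passed, 13 higher and 8 lower in HBx,Src(p53-), which is 0.166% of the genes tested (0.103% higher and 0.0634% lower). All 21 had 4 libraries of HBx,Src(p53-) on the same side of the 4 of Src(p53-). Over all genes tested 4.21% lay above in this way and 1.08% below. All 21 had the same sign on NOR and on the obesity diets. The 21 were picked by the fit to these same 8 libraries, so both traits follow largely from the choice. Of the 21, 7 have a symbol: zgc:153219, myl7, s100v2, hsc70 and baxb rose, and zgc:171534 and doc2g fell. The other 14 are assembled genes without a name. Of the 21, 9 had a mean of at least 10 FPKM, 4 were listed at 0 in all HBx,Src(p53-) libraries and 4 in all Src(p53-) libraries. The number of calls followed single libraries: it was 274 without HBx,Src(p53-) NOR 2, 6 without Src(p53-) NOR 1, 13 without Src(p53-) NOR 2, 8 without HBx,Src(p53-) DIO 2 and 10 without HBx,Src(p53-) DIO 1. Without Src(p53-) FAT, the library on a diet that HBx,Src(p53-) lacks, 19 passed, of which 8 were higher and 11 lower, and 12 of the 21 were among them. Every one of the 21 kept its sign in each of these fits, which share most of the libraries that picked them.

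**Figure D1:**
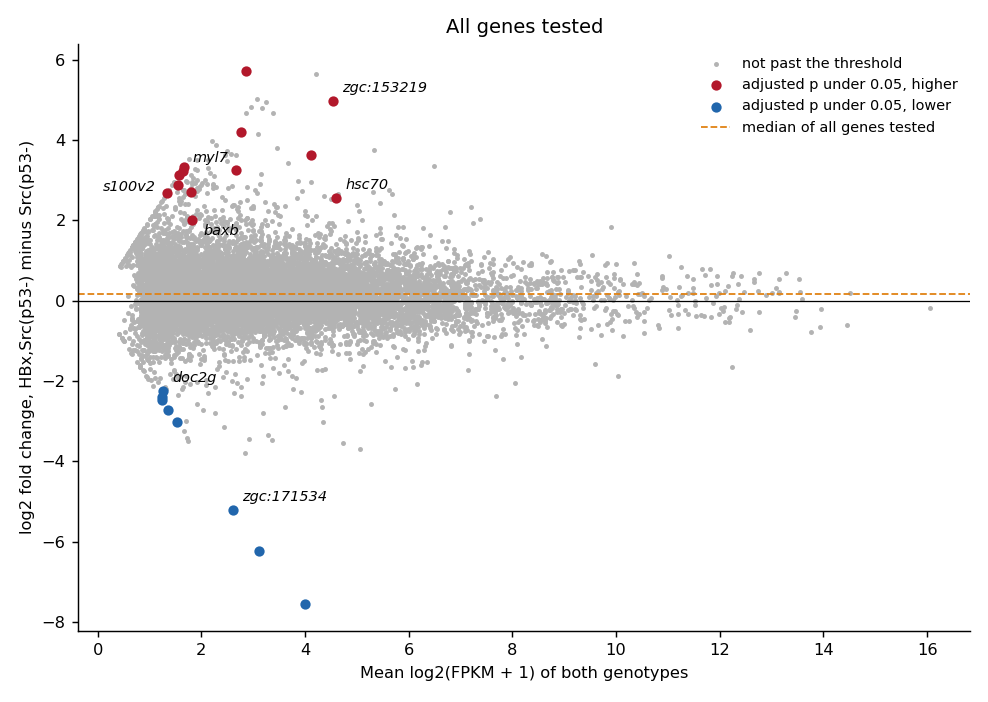
Each point is 1 of the 12628 genes tested, placed by its mean log2(FPKM + 1) over both genotypes (x axis) and its log2 fold change, HBx,Src(p53-) minus Src(p53-) (y axis). The 13 red points passed higher and the 8 blue points passed lower, the 7 with a symbol are named, and the dashed line is the median of all genes at 0.17.

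Among the genes with a symbol that passed, the steepest rise was that of zgc:153219, whose role is not given here. It was at 143, 77.6, 99.2 and 247 FPKM in HBx,Src(p53-), against 1.60, 4.37, 4.97 and 2.55 FPKM in Src(p53-). The groups were far apart, and the log2 fold change was 4.96 ± 0.43 (SE, n = 4 each; limma adjusted p = 0.00173). Outside the comparison zgc:153219 was at 7.83, 4.64, 2.46 and 1.95 FPKM in HBx(p53-) and at 321, 74.7, 80.3 and 441 FPKM in WT. Thus HBx,Src(p53-) lay in the range of WT for this gene, and 3 of the 4 HBx(p53-) libraries lay in the range of Src(p53-).

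The gene myl7, which encodes the regulatory light chain of atrial and ventricular myosin in the zebrafish heart, was at 4.87, 7.12, 19.7 and 7.59 FPKM in HBx,Src(p53-), against 0, 0, 0.0881 and 0 FPKM in Src(p53-). The log2 fold change was 3.23 ± 0.37 (SE, n = 4 each; limma adjusted p = 0.0129, and 0.0615 without Src(p53-) NOR 1). Every library with the HBx transgene was above every library without it, since HBx(p53-) had 9.62, 4.12, 15.5 and 4.91 FPKM and WT had 0, 0, 0.581 and 0.104 FPKM. Other genes of heart and skeletal muscle did not follow. Of 13 such genes matched, myl7 alone reached the test, the cardiac genes cmlc1, tnnt2a, nppa and actc1a were listed at 0 in all 8 libraries, and the cardiac myosin heavy chain gene myh6 was at 0 to 0.210 FPKM in HBx,Src(p53-) and 0.127 to 0.282 FPKM in Src(p53-).

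Reads of s100v2, a gene of the S100 family of calcium-binding proteins, gave 5.99, 3.59, 9.03 and 11.6 FPKM in HBx,Src(p53-), against 0, 0, 0 and 0.399 FPKM in Src(p53-). The log2 fold change of s100v2 was 2.88 ± 0.32 (SE, n = 4 each; limma adjusted p = 0.0111). Every library of the other genotypes except HBx(p53-) DIO held more than the Src(p53-) libraries, since s100v2 was at 3.32, 8.00, 0 and 2.22 FPKM in HBx(p53-) and 3.07, 3.76, 8.53 and 3.71 FPKM in WT. The call for s100v2 was lost without Src(p53-) NOR 1 (adjusted p = 0.0575) and without HBx,Src(p53-) DIO 1 or DIO 2 (0.0546 and 0.0561).

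The heat-shock cognate gene hsc70, a relative of the constitutive chaperone gene hspa8, was at 34.4, 27.3, 72.8 and 162 FPKM in HBx,Src(p53-), against 3.51, 5.07, 19.9 and 16.7 FPKM in Src(p53-). The log2 fold change of hsc70 was 2.56 ± 0.35 (SE, n = 4 each; limma adjusted p = 0.0301). In HBx(p53-) it was at 124, 66.7, 91.6 and 44.3 FPKM and in WT at 2.39, 0, 0.365 and 0.975 FPKM, so hsc70 was again above in every library with HBx, and Src(p53-) lay between WT and the HBx genotypes. The related hspa8 ran the other way without passing the test, at 380, 373, 337 and 368 FPKM in HBx,Src(p53-), against 490, 592, 391 and 515 FPKM in Src(p53-) (log2 fold change -0.43 ± 0.26, SE, n = 4 each; limma adjusted p = 0.519). Reads of near-identical chaperone genes can be shared between them in the authors' counting, so the split between hsc70 and hspa8 is uncertain. The call for hsc70 was lost in 6 of the 8 fits that leave out 1 library, with adjusted p up to 0.129, and it was kept only without HBx,Src(p53-) NOR 2 or DIO 1.

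The gene baxb belongs to the BAX family, whose members open the mitochondrial outer membrane during apoptosis. It was at 4.03, 3.14, 10.1 and 10.02 FPKM in HBx,Src(p53-), against 0.28, 0.468, 0.946 and 1.72 FPKM in Src(p53-) (log2 fold change 2.00 ± 0.29, SE, n = 4 each; limma adjusted p = 0.0454, lost in 7 of the 8 fits that leave out 1 library, with adjusted p up to 0.198). Its relative baxa, a p53 target in fish and mammals, was at 34.5, 15.9, 59.6 and 61.7 FPKM in HBx,Src(p53-) and at 10.4, 8.07, 20.7 and 27.4 FPKM in Src(p53-). The groups overlapped for baxa, and its log2 fold change of 1.29 ± 0.34 (SE, n = 4 each) did not pass (limma adjusted p = 0.196). Levels of baxb were 0.588 to 1.43 FPKM in HBx(p53-) and 0 to 6.58 FPKM in WT.

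The fall of zgc:171534 was an on-off difference. It was listed at 0 in all 4 HBx,Src(p53-) libraries and stood at 33.0, 45.9, 25.2 and 44.5 FPKM in Src(p53-) (log2 fold change on the fitted scale -5.22 ± 0.31, SE, n = 4 each; limma adjusted p = 6.46e-05). In the other genotypes zgc:171534 was at 0.0506, 0, 0 and 0.0524 FPKM in HBx(p53-) and at 0, 0, 0 and 45.9 FPKM in WT, so the only library outside Src(p53-) with a level of this size was WT FAT. The gene doc2g, of the DOC2 family of calcium-binding proteins of membrane traffic, was at 0, 0, 0.330 and 0.0862 FPKM in HBx,Src(p53-), against 7.6, 4.89, 3.08 and 2.60 FPKM in Src(p53-) (-2.25 ± 0.34, SE, n = 4 each; limma adjusted p = 0.0457). Levels of doc2g in HBx(p53-) (0.151 to 1.63 FPKM) overlapped with HBx,Src(p53-) and those in WT (0 to 3.29 FPKM) with both, and its call was lost in 7 of the 8 fits that leave out 1 library, with adjusted p up to 0.170.

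**Figure D2:**
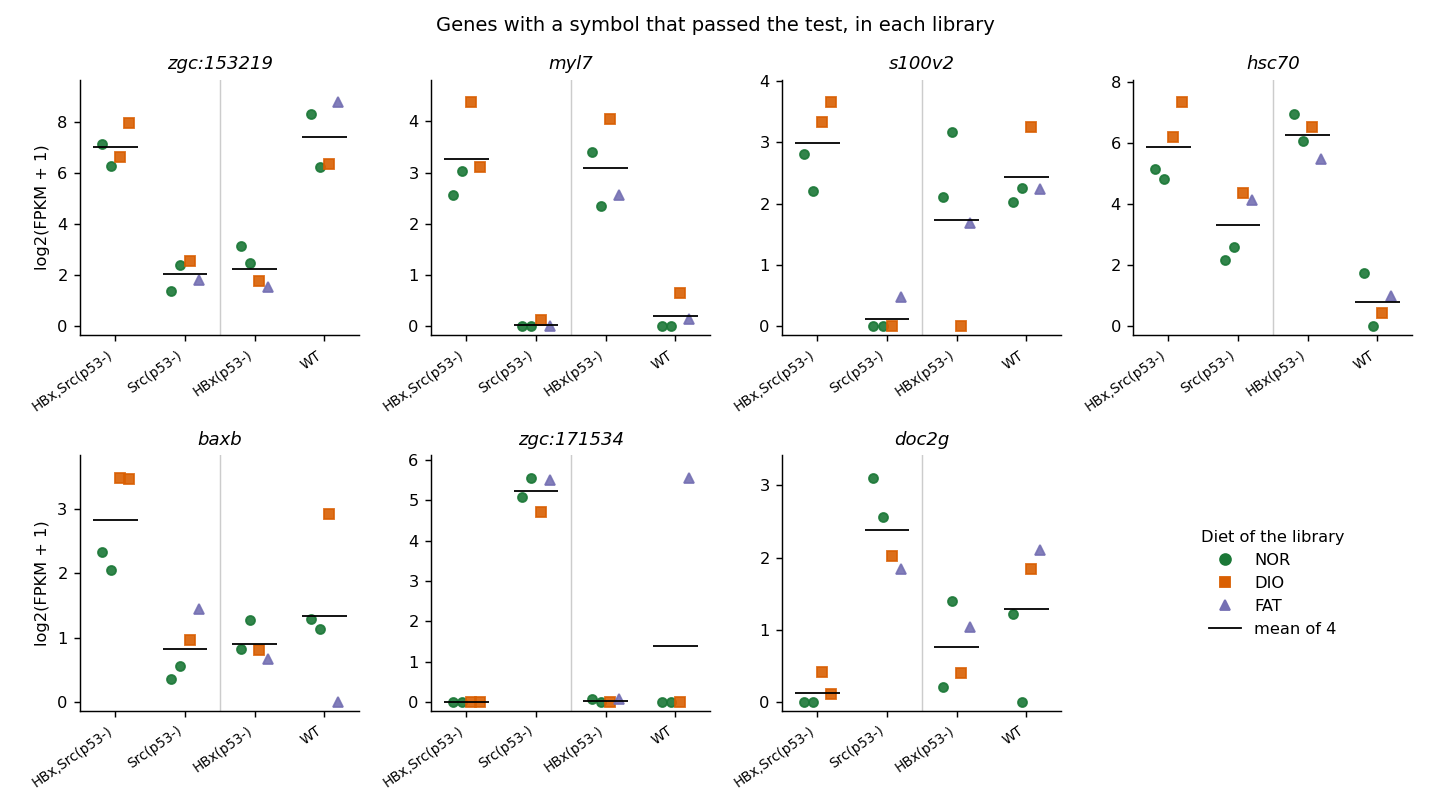
Each panel gives log2(FPKM + 1) of a gene with a symbol that passed the test (y axis) in the 4 libraries of each genotype (x axis), with symbols for the diet and a line at the mean of 4. The HBx,Src(p53-) points lie on one side of the Src(p53-) points in all 7 panels, and for myl7 and hsc70 HBx(p53-) lies above WT as well.

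The genes without a name held the largest differences. MSTRG.26769 was at 49.1, 57.4, 38.1 and 67.6 FPKM in HBx,Src(p53-) and was listed at 0 in all Src(p53-) and all HBx(p53-) libraries, while WT had 24.6, 9.75, 4.30 and 16.7 FPKM. MSTRG.1131 was at 0, 0, 0 and 0.813 FPKM in HBx,Src(p53-), against 231, 370, 133 and 197 FPKM in Src(p53-) (log2 fold change -7.56 ± 0.40, SE, n = 4 each; limma adjusted p = 4.49e-05). It was also listed at 0 in all 4 HBx(p53-) libraries and stood at 81.0, 151, 108 and 601 FPKM in WT. Hence MSTRG.1131 was present in both genotypes without HBx and listed at 0 or below 1 FPKM in both with it.

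MSTRG.29646 and MSTRG.29647 carry consecutive numbers in the authors' assembly and moved in opposite directions. MSTRG.29646 was at 39.2, 88.5, 61.5 and 58.6 FPKM in HBx,Src(p53-), against 4.42, 9.19, 1.24 and 3.80 FPKM in Src(p53-) (3.61 ± 0.45, SE, n = 4 each; limma adjusted p = 0.0195). MSTRG.29647 was listed at 0 in all HBx,Src(p53-) libraries, against 108, 118, 41.3 and 55.5 FPKM in Src(p53-) (limma adjusted p = 4.49e-05). In WT MSTRG.29646 was at 39.0, 4.39, 1.88 and 12.2 FPKM and MSTRG.29647 at 0, 85.1, 67.8 and 199 FPKM. In HBx(p53-) they were at 1.48 to 3.35 FPKM and 42.2 to 68.7 FPKM. Thus WT NOR 1, without HBx, was near HBx,Src(p53-) for this pair, and all HBx(p53-) libraries lay in the range of Src(p53-). Whether reads of a locus passed from an assembled gene to its neighbour in the numbering was not tested.

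The 8 libraries of HBx(p53-) and WT share no sample with the comparison, and these genotypes differ by the p53 mutation as well as by HBx. There limma passed 52 genes (0.412% of those tested). Of the 13 genes higher in HBx,Src(p53-), 2 were above WT in all HBx(p53-) libraries and passed (myl7, log2 fold change 2.89, adjusted p = 0.0309, and hsc70, 5.47, adjusted p = 0.0041). Another 2 were below WT in all HBx(p53-) libraries and passed, the opposite direction (zgc:153219 and MSTRG.26769). Over all genes tested 2.28% lay above and 2.66% below. Of the 8 genes lower in HBx,Src(p53-), 2 were below WT and 0 above, and MSTRG.1131 passed (adjusted p = 0.00323). The 2 were MSTRG.1131 and MSTRG.1130, which carry consecutive numbers in the authors' assembly. Whether they belong to 1 locus was not tested. By the mean of WT and HBx(p53-) together, 7 of the 13 rises and 6 of the 8 falls had these genotypes nearer to HBx,Src(p53-), and 6 and 2 nearer to Src(p53-). The share over all genes tested was not taken for this count. The mean also joins WT and HBx(p53-) where they lay far apart, as for zgc:153219 and MSTRG.1131. No result about these genes is read from it.

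By the 2-fold rule used in the study, without a p, 1230 genes were at least 2-fold higher (9.74%) and 385 at least 2-fold lower (3.05%). The split depends on scaling: 76.2% of these genes were higher with FPKM as deposited, 56% after quantile normalization (785 higher and 618 lower) and 61.7% after scaling to the median of ratios (889 higher and 553 lower). The median of all genes tested was 0.17 as deposited, -0.04 after quantile normalization and 0.02 after median of ratios scaling, so medians of gene groups are read here beside 0.17. With a median above 0, a majority of all genes had a positive sign as deposited. Counts of signs in a list are read beside that majority, and 2-fold counts beside 9.74% and 3.05%. All 4 HBx,Src(p53-) libraries lay above all 4 Src(p53-) libraries for 532 genes (4.21%) and below them for 136 (1.08%). At an unadjusted p under 0.05 1278 genes were higher (10.1%) and 387 lower (3.06%).

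Beyond the 5 that passed, the named rises with the largest fold changes were zgc:171977, zpax4, a2m3b, kpna7, larp6b, zgc:173856 and rrm2l, listed with an unadjusted p under 0.01 and no overlap but an adjusted p from 0.113 to 0.182 (limma). In the gene kpna7, an importin alpha of oocytes and early embryos in mammals, the values were 41, 2.5, 15.4 and 6.47 FPKM in HBx,Src(p53-), and it was listed at 0 in all Src(p53-) libraries. For zgc:171977 they were 262, 8.34, 53.6 and 37.8 FPKM, against 0, 3.82, 0 and 0 FPKM. For zpax4 they were 196, 8.31, 75.9 and 52.3 FPKM, against 0, 7.47, 0 and 0 FPKM.

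The 4 libraries of HBx,Src(p53-) were in a fixed order in these genes: NOR 1 was highest and NOR 2 lowest in 6 of the 7, against 12% of all genes tested, and in 0 of the 13 genes that passed. The 7 were picked as large fold changes that did not pass, which favours a wide spread within a genotype. The 13 were picked for passing in these same libraries, so the contrast between them follows in part from the choice. Of 9 matched ovary and oocyte markers 3 reached the test, and all 3 had NOR 1 highest and NOR 2 lowest. The filter of 1 FPKM is a mean over both genotypes, so markers low in Src(p53-) could enter through HBx,Src(p53-), mostly through NOR 1. The order and direction of these 3 markers therefore follow in part from the filter. Among them cldnd was at 52.5, 1.57, 15.8 and 11 FPKM in HBx,Src(p53-) and 0, 5.45, 0.439 and 0.165 FPKM in Src(p53-), zp3b, an egg coat protein gene, was at 0.508 to 7.15 FPKM and 0.0222 to 0.572 FPKM, and the germ plasm organizer buc was at 0.318 to 6.02 FPKM and 0 to 0.0778 FPKM. The oocyte and germ cell genes gdf9, dazl and ddx4 were listed at 0 in all Src(p53-) libraries and reached 2.64, 4.43 and 1.88 FPKM in HBx,Src(p53-) NOR 1. In the HBx(p53-) and WT libraries zpax4 was at 0 to 5.49 FPKM, kpna7 at 0 to 2.92 FPKM and rrm2l at 0 to 0.739 FPKM. The part of ovarian RNA in these 7 rises was not tested. Without HBx,Src(p53-) NOR 1 the 7 had log2 fold changes from 2.5 to 4.27 and none passed (limma adjusted p from 0.0951 to 0.226), and without HBx,Src(p53-) NOR 2 all 7 passed, from 3.56 to 6.08, where 1.96% of all genes passed higher. Of the 3 ovary markers 0 passed without NOR 1, with 2 tested, and 2 passed without NOR 2.

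A list of oestrogen-responsive genes of female liver had 1 matched member of 9, zgc:136254. It was at 543, 15.1, 181 and 186 FPKM in HBx,Src(p53-), against 0, 47.4, 0 and 0 FPKM in Src(p53-). All 4 HBx,Src(p53-) libraries and 1 of the 4 Src(p53-) libraries held it. In HBx,Src(p53-) it was highest in NOR 1 and lowest in NOR 2, and fits without these libraries are not given for it. The groups overlapped and the marker did not pass (5.64 ± 1.4, SE, n = 4 each, limma adjusted p = 0.182). In WT it was at 0, 6.64, 0 and 0 FPKM, and it was listed at 0 in all HBx(p53-) libraries. The labels do not give sex, and the part of sex in the differences between the genotypes was not tested.

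Among the named falls that did not pass, ctsba, which encodes the lysosomal protease cathepsin B, was at 0, 0, 12.6 and 0 FPKM in HBx,Src(p53-), against 30.8, 33.8, 17.6 and 23.5 FPKM in Src(p53-) (-3.80 ± 0.79, SE, n = 4 each; limma adjusted p = 0.135). It was called without HBx,Src(p53-) DIO 1, the library that held it at 12.6 FPKM. The gene grtp1a, a growth-hormone-regulated TBC protein, was at 0.102 to 1.3 FPKM and 1.80 to 9.82 FPKM (-1.92, limma adjusted p = 0.0884). For plod1a, a lysyl hydroxylase of collagen, the values were 11.4, 7.32, 7.78 and 7.36 FPKM in HBx,Src(p53-), against 29.0, 53.1, 18.4 and 14.6 FPKM in Src(p53-) (-1.5, limma adjusted p = 0.182).

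A further 5 named falls had log2 fold changes from -1.43 to -1.05 with adjusted p from 0.182 to 0.231 (limma) and groups that did not overlap. They were the tight junction gene cldn1, ankrd10b, the cadherin gene celsr2, the actin-capping gene tmod4 and the clock gene per2. For per2 the values were 7.16, 6.88, 9.24 and 8.27 FPKM in HBx,Src(p53-), against 17.6, 18.5, 22.3 and 12.2 FPKM in Src(p53-). The spread among the 4 HBx,Src(p53-) libraries was narrow. Of the genes tested, 385 (3.05%) were 2-fold lower, and only 66 of those have a symbol, 1.2% of the 5520 genes with one, against 319 of 7108 genes without one (4.49%).

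Genes of DNA replication and mitosis had the highest median of the 26 pathway lists, although none of the pathway lists had a member past the adjusted threshold. Of 26 tested members 23 had a positive sign, 13 were at least 2-fold higher (9.74% of all genes) and 0 lower, 7 lay above Src(p53-) in all 4 libraries (4.21% of all genes), and the median log2 fold change was 1.00 beside 0.17 for all genes. Summed over the matched members, HBx,Src(p53-) held 217 to 436 FPKM, against 67 to 175 FPKM in Src(p53-), so the groups did not overlap. The median was 0.75 after quantile normalization, 1.19 on NOR and 0.85 on the obesity diets. The filter of 1 FPKM is a mean over both genotypes, so members low in Src(p53-) could enter through HBx,Src(p53-). With no filter on low values 53 members were tested, with a median of 0.45 beside 0.03 for all genes. Of these 53, 15 were at least 2-fold higher and 0 lower, against 1293 higher of 31137 genes.

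The mitotic kinase gene aurkb was at 17.9, 3.51, 11.3 and 6.51 FPKM in HBx,Src(p53-), against 0, 2.40, 0.300 and 1.63 FPKM in Src(p53-) (2.35 ± 0.55, SE, n = 4 each; limma adjusted p = 0.182). The cyclin B gene ccnb1, which drives entry into mitosis, was at 52.2, 1.77, 16.3 and 13.8 FPKM, against 0, 1.01, 1.14 and 0.572 FPKM (3.11 ± 0.76). For mcm4, a subunit of the replicative helicase, the values were 24.1, 7.92, 7.54 and 6.69 FPKM, against 0.575, 2.06, 0.716 and 6.59 FPKM (1.97 ± 0.59). All 3 lay above, and the highest value was again in NOR 1. The thymidylate synthase gene tyms was at 5.79, 5.05, 2.36 and 1.59 FPKM, against 0, 0, 0 and 1.33 FPKM (1.82 ± 0.44). Likewise pcna, the sliding clamp of DNA polymerases, was at 15.1 to 44.4 FPKM and 5.16 to 20.4 FPKM, and mcm7 at 13 to 124 FPKM and 8.16 to 27.8 FPKM.

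The order with NOR 1 highest and NOR 2 lowest held in 6 of the 26 members (23.1%), against 12% of all genes tested. Oocytes also hold ccnb1 and other cell cycle transcripts, and the part of ovarian RNA in this list was not tested. Without HBx,Src(p53-) NOR 1, the library with the highest ovarian marker sum, 11 of 22 members were at least 2-fold higher with a median of 0.93. Without HBx,Src(p53-) NOR 2 4 members passed the adjusted threshold, all higher, where 1.96% of all genes did, and with all 16 libraries in the fit 2 did, against 0.634% of all genes. The study's own cell cycle genes gave ccne1 at 5.86, 0.691, 8.66 and 2 FPKM, against 0.6, 0.458, 0.682 and 4 FPKM (1.03, limma adjusted p = 0.472), and cdk2 at 0.338 to 5.25 FPKM and 0 to 2.77 FPKM (0.73, limma adjusted p = 0.531). The gene cdk1 did not reach 1 FPKM on average and was not tested.

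**Figure D3:**
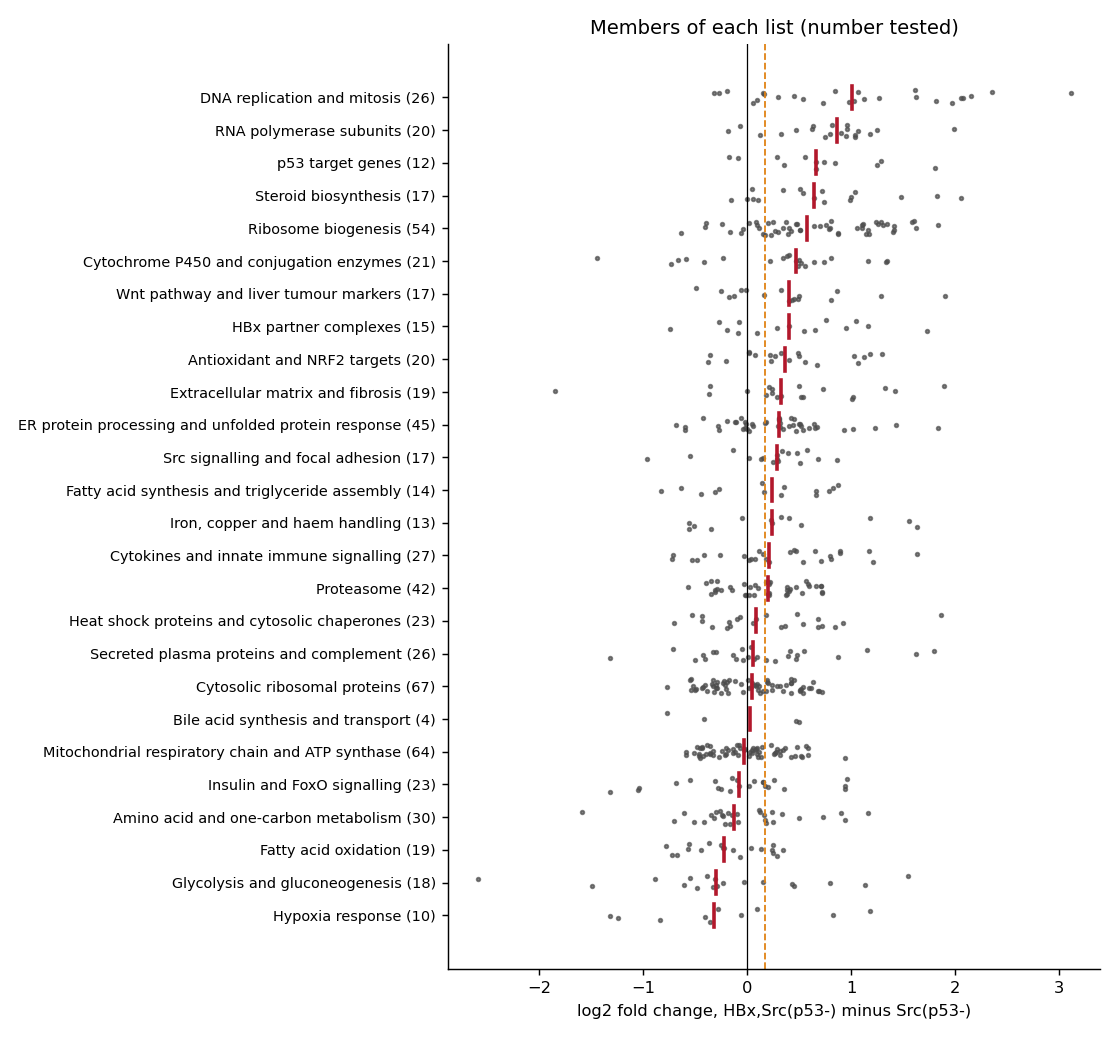
Each grey point is the log2 fold change of 1 list member, HBx,Src(p53-) minus Src(p53-) (x axis), in 26 pathway lists ordered by their median (red bar), with the number of members tested in brackets. The dashed line is the median of all genes at 0.17, and the medians run from 1.00 for DNA replication and mitosis to -0.32 for hypoxia response.

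Genes of RNA polymerase subunits and of ribosome assembly had higher medians on the obesity diets than on NOR, although the difference between diets passed for none of them. In the list of RNA polymerase subunits 18 of 20 members had a positive sign, 6 were at least 2-fold higher and 0 lower, with a median of 0.86 over both diets, 0.06 on NOR and 1.49 on the obesity diets. In ribosome biogenesis 47 of 54 had a positive sign, 19 were at least 2-fold higher and 0 lower, with a median of 0.58, 0.17 on NOR and 1.07 on the obesity diets. Over all genes 9.74% were at least 2-fold higher and 3.05% lower, and the median was 0.04 on NOR and 0.26 on the obesity diets. None of these members passed the adjusted threshold. Higher medians on the obesity diets were not particular to these lists. The proteasome list had a median of -0.37 on NOR and 0.76 on the obesity diets. Antioxidant genes had -0.21 and 0.79, and cytochrome P450 and conjugation enzymes had -0.10 and 0.77. Steroid biosynthesis genes, given below, went the other way.

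For emg1, which encodes a methyltransferase of the small ribosomal subunit, the values were 26.2, 9.18, 83.0 and 74.8 FPKM in HBx,Src(p53-), against 10.1, 20.9, 8.53 and 7.86 FPKM in Src(p53-) (1.61, limma adjusted p = 0.33). All HBx,Src(p53-) libraries except NOR 2 were above every Src(p53-) library, the DIO libraries by most. In polr3gla, a subunit of RNA polymerase III, with 47.3, 5.62, 123 and 263 FPKM, against 7.20, 8.90, 25.1 and 19.2 FPKM (1.98), the same 3 libraries were above. In utp23, of the small subunit processome, the values were 10.5, 5.50, 28.0 and 28.7 FPKM, against 3.2, 5.06, 8.84 and 6.79 FPKM (1.26, limma adjusted p = 0.215). For pop4, of RNase P and MRP, they were 3.71, 0.748, 7.55 and 10.3 FPKM, against 0.534, 0.892, 0.667 and 1.02 FPKM (1.59), and for dkc1, the pseudouridine synthase dyskerin, 525, 19.4, 610 and 359 FPKM, against 29.8, 79.6, 185 and 162 FPKM (1.24).

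HBx,Src(p53-) NOR 2 was the lowest of its genotype in all 5, and NOR 1 highest with NOR 2 lowest held in 18 of the 54 ribosome biogenesis genes (33.3%). Without NOR 2 7 ribosome biogenesis genes passed and 28 were at least 2-fold higher, and 1 RNA polymerase gene passed and 14 were 2-fold higher, against 13 and 5 without NOR 1. Over all genes 1.96% passed higher and 15.1% were at least 2-fold higher without NOR 2, and 9.71% were 2-fold higher without NOR 1. Of these lists polr3f, at 2.01, 1.41, 3.03 and 2.56 FPKM in HBx,Src(p53-), against 0.491, 0.741, 0.297 and 0.612 FPKM in Src(p53-) (1.07 ± 0.30, SE, n = 4 each; limma adjusted p = 0.212), and polr2g were the members without overlap. Of all genes tested 4.21% lay above in all 4 libraries and 1.08% below. Ribosomal proteins themselves had a lower median. Of 67 cytosolic ribosomal protein genes 37 had a positive sign and 0 were 2-fold different, with a median of 0.05, and rplp2b and rpl21 were among those below in all 4 libraries (65.2 to 124 FPKM in HBx,Src(p53-), against 131 to 184 FPKM in Src(p53-), for rplp2b).

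Sterol genes had a higher median on NOR than on the obesity diets, although the difference between diets passed for none of them. Of 17 tested steroid biosynthesis genes 15 had a positive sign, 5 were at least 2-fold higher (9.74% of all genes) and 0 lower. Their median was 0.64 over both diets, 1.15 on NOR and 0.05 on the obesity diets. The isopentenyl diphosphate isomerase gene idi1 was at 549, 240, 94.6 and 112 FPKM in HBx,Src(p53-), against 90.1, 147, 23.4 and 26.8 FPKM in Src(p53-) (1.82 ± 0.36, SE, n = 4 each; limma adjusted p = 0.134). Within each diet class both HBx,Src(p53-) libraries were above both Src(p53-) libraries for idi1, while across diets the groups overlapped. The squalene epoxidase gene sqlea was at 110, 22.8, 0 and 0.076 FPKM, against 2.75, 1.53, 0 and 0.00555 FPKM (2.05 ± 0.80), and the mevalonate decarboxylase gene mvda at 153, 26.4, 0.495 and 0.695 FPKM, against 7.68, 8.26, 0.139 and 0.932 FPKM (1.48 ± 0.67). Both were near 0 on the obesity diets in either genotype. Without HBx,Src(p53-) NOR 1 the list's median was 0.03 with 2 of 15 members at least 2-fold higher, and without HBx,Src(p53-) NOR 2 1 member passed, where 1.96% of all genes did.

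Host factors of HBx were described by a list of the CUL4-DDB1 ligase, the SMC5/6 complex, CREB coactivators, DNA methyltransferases and reported partners. Of 15 tested 10 had a positive sign and 3 were at least 2-fold higher (9.74% of all genes). The median was 0.40, or 0.04 without HBx,Src(p53-) NOR 1. The maintenance DNA methyltransferase gene dnmt1 was the only member without overlap, at 14.0, 2.24, 4.43 and 2.92 FPKM in HBx,Src(p53-), against 1.45, 0.857, 0.269 and 0.484 FPKM in Src(p53-) (1.73 ± 0.46, SE, n = 4 each; limma adjusted p = 0.201). It passed without HBx,Src(p53-) NOR 2. Of all genes tested 4.21% lay above in all 4 libraries. The single member without overlap is therefore not read as a result about the list. The WD-repeat gene wdr5, of histone methyltransferase complexes, was at 76.5, 23.4, 85.7 and 31.4 FPKM, against 14.6, 32.4, 14.9 and 24.8 FPKM (1.16), and the arginine methyltransferase gene prmt5 at 11.9 to 77.0 FPKM and 6.35 to 27.9 FPKM (1.04).

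Of 17 genes of Src signalling and focal adhesion 14 had a positive sign and 0 were 2-fold different. Their median was 0.29 beside 0.17 for all genes. The transcription factor gene stat3, a target of Src kinases, was above in all 4 libraries at 3.48, 5.05, 4.16 and 4 FPKM, against 2.36, 2.12, 3.37 and 2.67 FPKM (0.51, limma adjusted p = 0.473). The gene csk, the kinase that inhibits Src, was at 14.7 to 49.2 FPKM and 14.2 to 24.6 FPKM (0.58). The median of 12 p53 target genes, in fish with mutant p53 on both sides, was 0.66. Of the 12, 10 had a positive sign and 3 were at least 2-fold higher (9.74% of all genes). Besides baxa these were cdkn1a, the cell cycle inhibitor p21, at 228, 0, 10.6 and 6.02 FPKM, against 0, 0, 3.37 and 27.3 FPKM, which rested on HBx,Src(p53-) NOR 1, and the stress gene gadd45aa at 1.53 to 25.2 FPKM and 1.56 to 5.14 FPKM.

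Extracellular matrix genes included the named list member nearest to the threshold. The periostin gene postnb, of the matrix of activated fibroblasts, was at 12.7, 12.3, 13.3 and 21.2 FPKM in HBx,Src(p53-), against 3.11, 3.72, 2.2 and 3.81 FPKM in Src(p53-) (1.90 ± 0.32, SE, n = 4 each; limma adjusted p = 0.0773, and 0.0301 without HBx,Src(p53-) NOR 2). The 4 libraries of each genotype were close to each other for postnb, and it was at 0.514 to 4.81 FPKM in HBx(p53-) and 0.984 to 8.79 FPKM in WT. The matrix metalloproteinase gene mmp2 was at 5.02, 4.39, 5.39 and 5.11 FPKM, against 1.55, 2.79, 0.866 and 3.2 FPKM (1.02). The fibronectin gene fn1a lay below, at 1.03, 0.303, 0.519 and 0.304 FPKM, against 1.13, 22.5, 1.34 and 6.35 FPKM (-1.84, limma adjusted p = 0.311). Of 19 tested members 16 had a positive sign, 5 were at least 2-fold higher (9.74% of all genes) and 1 lower (3.05%), with a median of 0.32.

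Secreted liver proteins were little different as a group (26 tested, 15 positive, median 0.05). Among them cfd, encoding complement factor D, was at 56.0, 77.2, 125 and 75.1 FPKM in HBx,Src(p53-), against 16.1, 31.7, 18 and 26.6 FPKM in Src(p53-) (1.80 ± 0.37, SE, n = 4 each; limma adjusted p = 0.135). HBx(p53-) had 16.4 to 39.9 FPKM of cfd and WT 9.56 to 29.8 FPKM, below every HBx,Src(p53-) library. The gene anxa2a, which encodes the membrane-binding protein annexin A2 and stood in the list of Wnt and liver tumour markers, was at 8.56, 18.9, 12.3 and 14.7 FPKM, against 1.87, 7.48, 1.28 and 2.69 FPKM (1.90 ± 0.45, limma adjusted p = 0.182), with 1.38 to 5 FPKM in HBx(p53-) and 1.97 to 6.91 FPKM in WT. The apolipoprotein M gene apom was at 358 to 699 FPKM and 149 to 322 FPKM (0.88), and hamp, the iron hormone hepcidin, at 7.17, 13.3, 1.15 and 1.55 FPKM, against 0.151, 1.09, 0.736 and 0.674 FPKM (1.63). All 4 lay above in every library, as did 4.21% of all genes tested.

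Protein folding genes were mixed. Of 45 tested genes of the endoplasmic reticulum 30 had a positive sign and 4 were at least 2-fold higher (9.74% of all genes). Their median was 0.31. The unfolded protein response factor xbp1 was at 2468, 1281, 2915 and 1165 FPKM in HBx,Src(p53-), against 477, 1215, 190 and 591 FPKM in Src(p53-) (1.84 ± 0.53), and edem1, of misfolded protein disposal, lay above at 8.51 to 20.6 FPKM, against 3.97 to 8.22 FPKM (0.93). Of 23 heat shock and chaperone genes 13 had a positive sign and only dnajb1b, a co-chaperone of HSP70, was 2-fold higher, at 18.4, 7.12, 12.1 and 8.72 FPKM, against 1.33, 0.512, 2.92 and 7.26 FPKM (1.86 ± 0.49). The member of this family that passed, hsc70, is described above.

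Metabolic lists below the median of all genes were led by glycolysis and gluconeogenesis, with 12 of 18 members negative and a median of -0.30. The enolase gene eno1a was at 35.8, 22.7, 27.18 and 22.8 FPKM in HBx,Src(p53-), against 126, 251, 45.9 and 23.5 FPKM in Src(p53-) (-1.49 ± 0.51, limma adjusted p = 0.271), with -2.60 on NOR and -0.39 on the obesity diets. The glucokinase gene gck, at 2.09, 231, 56.6 and 0.488 FPKM, against 179, 3649, 59.9 and 0.991 FPKM (-2.58 ± 1.88), varied more within each genotype than between them. Fatty acid oxidation had 12 of 19 members negative (median -0.22, 0 at 2-fold), amino acid and one-carbon metabolism 17 of 30 (median -0.12) and the respiratory chain 33 of 64 (median -0.03, 0 at 2-fold). In amino acid metabolism bhmt, the betaine-homocysteine methyltransferase, was at 373 to 510 FPKM in HBx,Src(p53-), against 440 to 2472 FPKM in Src(p53-) (-1.59, limma adjusted p = 0.237). Src(p53-) FAT was the library with 440 FPKM, and the groups did not overlap without it.

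The other lists had medians between -0.32 and 0.47. Fatty acid synthesis and triglyceride assembly (14 tested, median 0.24), proteasome (42, 0.20), cytochrome P450 and conjugation enzymes (21, 0.47), antioxidant genes (20, 0.36), iron, copper and haem handling (13, 0.24), cytokines and innate immune signalling (27, 0.21), bile acid genes (4, 0.03), insulin and FoxO signalling (23, -0.07), Wnt and liver tumour markers (17, 0.41) and hypoxia response (10, -0.32) had 0 members past the adjusted threshold in either direction. Of the genes singled out in the study 13 were tested, with a median of 0.16, 3 at least 2-fold higher and 1 lower. They include scd, a fatty acid desaturase, at 276, 516, 155 and 34.8 FPKM in HBx,Src(p53-), against 492, 3272, 9.88 and 455 FPKM in Src(p53-) (-0.83), whose sign turned without Src(p53-) FAT.

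Markers of other cell types were higher in HBx,Src(p53-) for several types, none past the adjusted threshold except myl7. In bulk liver more cells of a type and more RNA per cell cannot be told apart. Of 17 matched exocrine pancreas genes 12 were tested. All 12 had a positive sign and 9 were at least 2-fold higher (9.74% of all genes). The filter of 1 FPKM is a mean over both genotypes, so markers low in Src(p53-) could enter through HBx,Src(p53-). This limits the counts of signs and of 2-fold changes in this and the other marker lists. The matched pancreas genes summed to 84.1, 316, 440 and 49.6 FPKM in HBx,Src(p53-), against 8.05, 42.1, 59.6 and 87.0 FPKM in Src(p53-). The pancreatic sums were 35.3 to 300.1 FPKM in HBx(p53-) and 5.61 to 30.7 FPKM in WT. The zebrafish pancreas lies against the liver, and the part of pancreatic tissue in the other results was not tested. The chymotrypsinogen gene ctrb.3 was above in all 4 libraries (5.12, 28.9, 31.8 and 6.43 FPKM, against 0, 4.48, 2.82 and 2.38 FPKM).

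Immune cell markers differed by less. Neutrophil markers summed to 39.2 to 57.8 FPKM in HBx,Src(p53-), against 19.1 to 27.8 FPKM in Src(p53-), 13.6 to 21.7 FPKM in HBx(p53-) and 16.1 to 25.9 FPKM in WT. The neutrophil gene mpx, encoding myeloperoxidase, was at 18.8, 0.238, 1.06 and 0.918 FPKM and was listed at 0 in all Src(p53-) libraries. The granule proteoglycan gene srgn, the largest part of that sum in every library of both genotypes, was at 22, 33.7, 40.3 and 46.3 FPKM, against 18, 21, 15.7 and 15.4 FPKM (0.94, limma adjusted p = 0.285). The neutrophil sums without srgn overlapped between HBx,Src(p53-) and Src(p53-). Macrophage markers summed to 53.2 to 95.9 FPKM and 47.2 to 62.6 FPKM, so the sums overlapped. Of 8 macrophage genes tested 6 had a positive and 2 a negative sign, and 2 were at least 2-fold higher (9.74% of all genes). The macrophage genes mpeg1.1, c1qa, c1qb and c1qc lay above in all 4 libraries. For mpeg1.1, a pore-forming protein of macrophages, the values were 5.55, 6.65, 10.1 and 10.04 FPKM, against 3.17, 4.81, 2.68 and 2.89 FPKM (1.03 ± 0.33, limma adjusted p = 0.246). Over all genes tested 4.21% lay above in this way.

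Markers of stellate cells and fibroblasts summed to 29.5 to 78.9 FPKM in HBx,Src(p53-), against 13.2 to 23.7 FPKM in Src(p53-), beside which the level of postnb stands. The retinol-storing enzyme gene lrata was at 13.5, 14.5, 27.6 and 65.9 FPKM, against 7.76, 4.39, 14.5 and 14.6 FPKM (1.31 ± 0.36). It was a large part of these sums, with 65.9 of the 78.9 FPKM in HBx,Src(p53-) DIO 2, and the sums without lrata overlapped. Of 6 stellate and fibroblast genes tested 1 was at least 2-fold higher, with a median of 0.38. The keratin gene krt4, in the list of biliary markers, was above at 3.89, 2.71, 4.29 and 4.27 FPKM, against 0.571, 1.33, 1.18 and 0.777 FPKM (1.29 ± 0.29, limma adjusted p = 0.175). The part of these cell types in the matrix genes was not tested. Hepatocyte markers, at 17187 to 44502 FPKM and 12890 to 24760 FPKM summed, and red blood cell markers, at 745 to 1212 FPKM and 649 to 1061 FPKM, overlapped between the genotypes, so the tissue held its defining markers in every library.

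**Figure D4:**
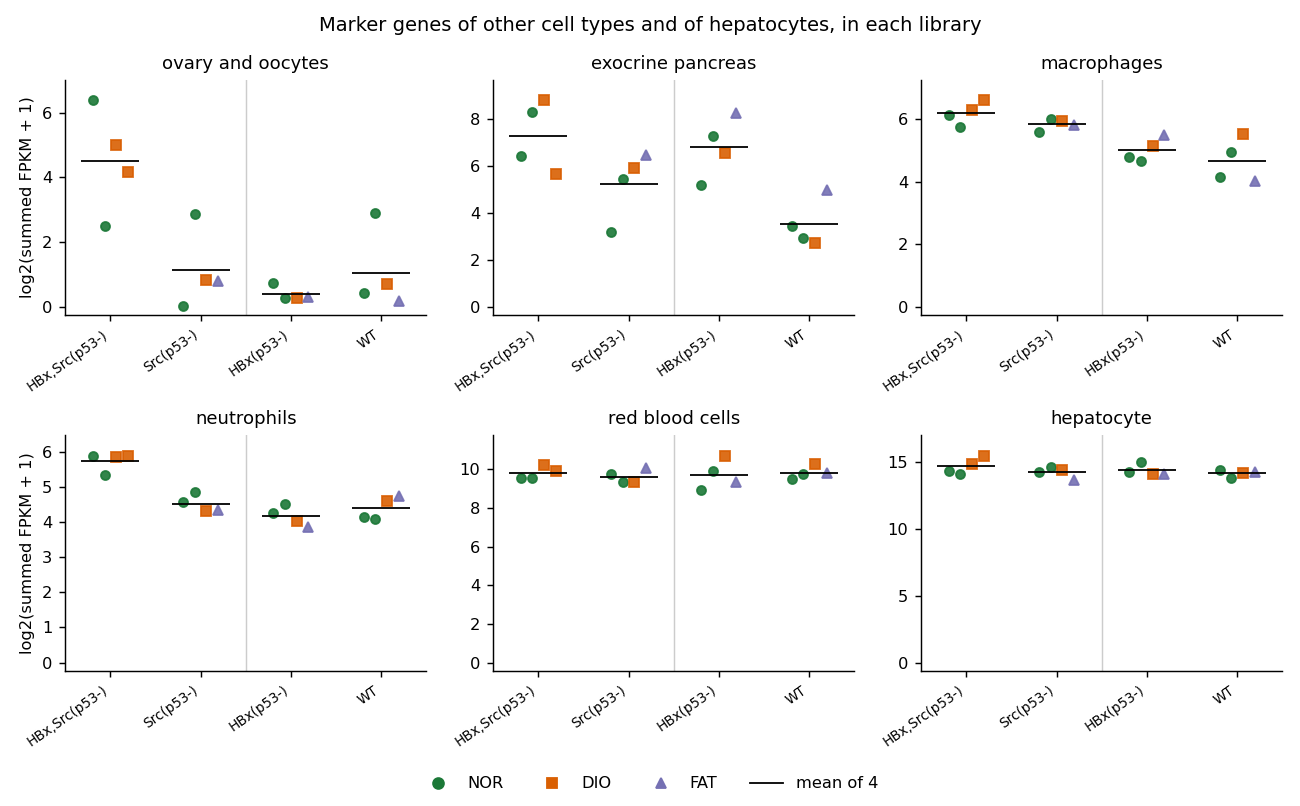
Each panel gives log2 of the summed FPKM plus 1 of the marker genes of a cell type (y axis) in the 4 libraries of each genotype (x axis), with symbols for the diet and a line at the mean of 4. Neutrophil sums of HBx,Src(p53-), of which srgn is the largest part, lie above every other library. Ovary and oocyte sums are highest in HBx,Src(p53-) NOR 1 at 82.0 FPKM, and hepatocyte sums overlap.

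The contrast was also fitted within each diet class, 2 libraries against 2. On NOR 4 genes passed (0.0317%; 1 higher, 0.00792%, and 3 lower, 0.0238%), with 1368 genes at least 2-fold higher (10.8%) and 875 lower (6.93%). On the obesity diets 16 passed (0.127%; 9 higher, 0.0713%, and 7 lower, 0.0554%), with 2703 at least 2-fold higher (21.4%) and 701 lower (5.55%). Across the 12628 genes the NOR and obesity fold changes correlated at 0.22, a description over genes that are not independent. The obesity contrast sets DIO against DIO and FAT, so genotype and high-fat feeding cannot be told apart in it. Without a single library the NOR count ran from 2 to 102 and the obesity count from 5 to 155.

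**Figure D5:**
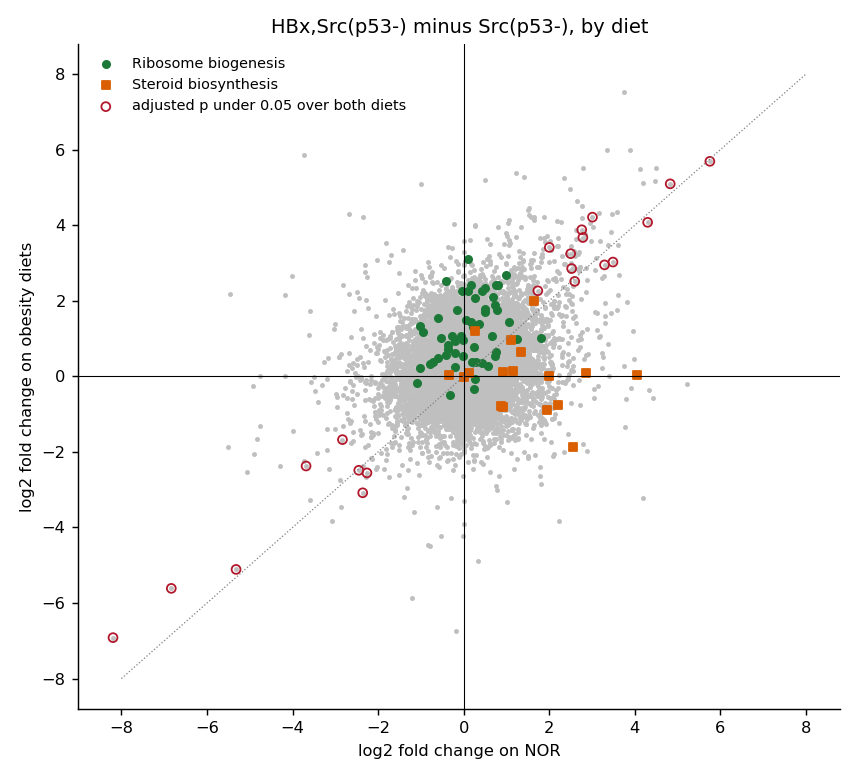
Each point is a gene tested, placed by its log2 fold change HBx,Src(p53-) minus Src(p53-) on NOR (x axis) and on the obesity diets (y axis), with ribosome biogenesis genes as green circles, steroid biosynthesis genes as orange squares and the 21 genes that passed over both diets circled. The 21 lie in the 2 quadrants of equal sign, ribosome biogenesis genes are centred at 0.17 on NOR and 1.07 on the obesity diets, and steroid biosynthesis genes at 1.15 and 0.05.

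The difference between the 2 diet classes passed for 1 gene (0.00792%), an assembled gene without a symbol. It was at 0, 0, 41.3 and 78.9 FPKM in HBx,Src(p53-), against 14.4, 10.6, 0 and 0 FPKM in Src(p53-), so the genotypes were on opposite sides in NOR and obesity (obesity minus NOR 9.60 ± 0.62, SE, 2 libraries in each cell; limma adjusted p = 0.00362). In WT this gene was at 0, 37.3, 33.2 and 78.8 FPKM, and it was listed at 0 in all HBx(p53-) libraries. It thus was on or off between WT libraries of the same diet, NOR, and a part of diet in it was not tested apart from that. At an unadjusted p under 0.05 1103 genes had a difference toward higher on the obesity diets (8.73%) and 329 toward lower (2.61%). Among genes with a symbol the smallest p values belonged to zgc:153031, rnf180b and upp2 (higher on obesity) and mybpc1, zgc:158432 and adipor2 (lower on obesity), with adjusted p from 0.235 to 0.312.

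The uridine phosphorylase gene upp2 was at 11.4, 14.6, 150 and 301 FPKM in HBx,Src(p53-), against 68.5, 76.6, 72.8 and 106 FPKM in Src(p53-). Its level was even over the 4 Src(p53-) libraries and differed by diet in HBx,Src(p53-) (-2.40 on NOR and 1.26 on obesity). The adiponectin receptor gene adipor2, a promoter of fatty acid oxidation in liver, was at 63.1, 75.3, 25.8 and 26.6 FPKM, against 14.8, 21.4, 47.3 and 80.5 FPKM (1.89 on NOR and -1.21 on obesity). For zgc:153031 the values were 0.174, 0.203, 11.5 and 10.5 FPKM, against 5.81, 4.10, 1.71 and 0.166 FPKM, and for the ubiquitin ligase gene rnf180b they were 1.59, 2.29, 17.3 and 12.0 FPKM, against 10.4, 11.9, 4.98 and 3.33 FPKM. None of the 6 passed, and their fold changes over both diets were between -0.57 and 0.34.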

How the data were processed

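The authors aligned reads to GRCz10 and assembled transcripts (HISAT2 2.1.0, StringTie 1.3.4d and R 3.5.3 in the submitters' processing notes) and deposited FPKM for each library; whether a value is per transcript or gene, and whether strand was used, is not given in the sources used here. FPKM holds no read counts, so depth did not enter the fit. The paper lists the reads of each library. Both Src(p53-) NOR libraries had fewer clean reads than every HBx,Src(p53-) library, and the part of depth in genes listed at 0 was not tested. The 35885 entries became 35852 genes after entries of 1 symbol were summed, 11937 with a symbol (from the table or a RefSeq transcript name). limma 3.58.1 (R 4.3.3; eBayes with trend) was fitted to log2(FPKM + 1) of the 8 libraries with diet class as covariate, for genes whose mean reached 1 FPKM, and tested on simulated data. Figures used Python 3.11.15, pandas 2.3.3 and matplotlib 3.10.9. Named genes were the 12 largest rises and falls with a symbol that passed without overlap, filled with genes of unadjusted p under 0.01, the 3 smallest p per direction for the diet difference, and up to 4 per list. Members and lists were chosen with earlier results of these data known. Values of some genes are not reported here.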

Additional observations from a re-analysis of the deposited data

Results flagged for a closer look

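In 15 of 146 groups of 4 libraries a library lay so far from the other 3 that its gap, as a share of the group's range, exceeded Dixon's critical value. For independent groups of normally distributed values about 1 in 20 would exceed it. A gene listed at 0 in 3 of 4 libraries exceeds it by construction, and the genes were picked from these same libraries. The count of 15 is therefore not read beside that rate. In Src(p53-) 7 of these were low genes with a single library above 0: myl7 at 0.0881 FPKM in DIO, s100v2 at 0.399 FPKM in FAT, and zgc:171977 at 3.82 FPKM, zpax4 at 7.47 FPKM, a2m3b at 0.812 FPKM, larp6b at 0.564 FPKM and zgc:173856 at 0.986 FPKM, all in NOR 2. In HBx,Src(p53-) ctsba stood at 12.6 FPKM in DIO 1 with the other libraries listed at 0, and plod1a at 11.4 FPKM in NOR 1 with the others near 7.5 FPKM.

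Mean log2(FPKM + 1) over a list stood apart in 6 groups. In Src(p53-) NOR 2 was highest for the HBx partner list (3.45), for heat shock proteins (4.38) and for a list of oestrogen-responsive genes in which zgc:136254 alone was matched (5.60, with the other 3 at 0), and NOR 1 was lowest for intestine markers (0.62). In HBx,Src(p53-) NOR 2 was lowest for cytochrome P450 and conjugation enzymes (3.09), and DIO 1 was highest for lymphocyte markers (1.44).

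The effect of genotype differed between diets for 1 assembled gene without a symbol, with a log2 difference, obesity minus NOR, of 9.60 (limma adjusted p = 0.00362, 2 libraries in each cell). The same gene also differed between the WT libraries on NOR, at 0 and 37.3 FPKM.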

How the results depend on the processing

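All 21 calls kept their sign under every alternative in which they were tested, but their number did not hold. Each alternative used libraries that had picked these genes, so a kept sign is no separate support. The 21 genes (13 higher, 8 lower) became 7 (4 and 3) with a pseudocount of 5, 6 (3 and 3) with no filter on low values, 7 (4 and 3) at a mean of at least 10 FPKM and 96 (80 and 16) with all 16 libraries in the fit. Without the diet covariate 8 were higher and 8 lower, and with 3 diets 7 were higher and 10 lower, with 11 of the 21 among them. Leaving out 1 library gave 6 to 274 calls, 3 to 247 higher and 3 to 27 lower. With the replicate number as a block 10 passed (6 higher, 4 lower), but same-numbered NOR libraries' deviations correlated at -0.225, so the numbers did not pair the samples. Crossed pairing, chosen after seeing the data, gave 69 (59 higher). Genes at least 2-fold higher or lower numbered 2110 and 770 with a pseudocount of 0.1, 408 and 106 with 5, 447 and 146 at a mean of at least 10 FPKM and 785 and 618 after quantile normalization, and 1079 to 1899 and 340 to 504 without 1 library. On NOR calls were 9 with a pseudocount of 0.1 and 2 to 102 without 1 library. On the obesity diets they were 10 with a pseudocount of 0.1, 28 with 5, 4 with no filter, 7 at a mean of at least 10 FPKM and 5 to 155 without 1 library. The diet difference gave 0 calls with no filter, 0 at a mean of at least 10 FPKM and 0 to 2 without 1 library. Small fold changes turned sign: zgc:153031 with a pseudocount of 0.1 (-0.057) or 3 diets (-0.53), mybpc1 after quantile normalization (-0.072) or median of ratios (-0.034), zgc:158432 with a pseudocount of 5 (0.037) or 3 diets (0.10), agpat2 after median of ratios (-0.033), and cyp7a1 (0.034), agpat4 (0.19) and scd (0.063) with 3 diets. Without 1 library ranges were -0.53 to 0.81 for zgc:153031, -0.69 to 0.21 for rnf180b, -0.23 to 0.61 for mybpc1, -1.04 to 0.12 for zgc:158432, -0.067 to 0.81 for adipor2, -1.73 to 1.24 for cyp7a1, -0.64 to 0.30 for agpat4, -2.09 to 0.063 for scd and -0.11 to 0.75 for nop56. For these counts and signs the cause was not tested.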
